A study of Mus musculus with 2 samples.

Results

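The genomic flanks of solo long terminal repeats (LTRs) of the mouse intracisternal A particle (IAP) were examined, meaning the CpG positions that lie 1 to 1000 bp outside a solo LTR on either side. Solo LTRs were taken from the study's list of IAP elements, of which the 1997 rows used here cover chromosome 1 and the start of chromosome 10, and positions inside any other listed element were left out. These rows held 420 solo LTRs (365 on chromosome 1 and 55 on chromosome 10), and thus 840 flank sides, besides 622 other LTRs. Of all CpG positions with a call, 810 of 754507 in sperm and 894 of 959191 in tail lay in these flanks. TEPBAT, a target enrichment method built on post-bisulfite adaptor tagging, copies bisulfite-treated DNA by random priming and then enriches LTR fragments by PCR with a primer inside the LTR, so that fragments can run past the LTR end into the DNA beside it. The IAP-BS1 primer points out of the upstream end of the LTR and the IAP-BS2 primer out of the downstream end, where upstream and downstream follow the sense strand of the LTR. DNA came from the sperm and the tail of a single adult C57BL/6J male, with 1 library for each. Tail DNA comes from a mixture of somatic cell types. With a single mouse and no replicate library, all tests set 1 library against the other and cannot show a difference between tissues, and flanks are not replicates. Without molecular identifiers, copies made by PCR were counted as separate calls, so exact intervals of single levels cover counting error only. Intervals of medians and of shares are taken over sides or positions. No interval covers variation between mice or libraries.

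IAP elements are retroviral-like retrotransposons that are still active in mice, and CpG methylation is a main means by which their LTR promoters are kept silent. A solo LTR remains when the LTRs of an element recombine with each other and the internal part is lost. Integration copies a few bases of the target, so the same short sequence is found at both ends of an insertion, and beyond it lies the DNA that was there before the element. Such DNA is of interest since methylation of a repeat can extend into its surroundings and since a poorly methylated LTR can act on nearby genes.

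Many solo LTRs carried this mark of integration. The same 6 bases stood directly before and after the LTR at 226 of 420 solo LTRs, which is 53.8%, against 0 of 313 LTRs listed as 5′ and 1 of 309 listed as 3′. An LTR listed as 5′ or 3′ borders the internal part of its element, so the same bases are not expected at both of its ends. The share was 66.5% in the 221 solo LTRs of the 6 subfamilies that the primers were designed for and 39.7% in the other 199. The flanks were poor in CpG, with a median of 0.5 CpG sites per 100 bp over the 300 bp on each side, against 4.44 sites per 100 bp in the LTRs, which held a median of 17 sites. The density was lower in the flanks than in their LTR at 416 of 420 loci. A flank is therefore described by few CpG positions.

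Some flanks held IAP-like sequence outside the listed intervals. A search with blastn against all listed elements found stretches of 30 bp or more, matched by at least 3 other elements, in the first 300 bp of 24 of the 840 sides, at 21 solo LTRs. These stretches held 48 of 432 measured positions in sperm (11.1%) and 54 of 472 in tail (11.4%). Medians inside and outside of them were 0.925 and 0.930 in sperm, and 0.920 and 0.887 in tail.

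The following flanks show what was read. They belong to 5 of the sides with the largest called differences between the libraries among sides with at least 3 positions and 100 calls in both, leaving out sequence that is itself IAP-like, and their values are given further below. Each is the GRCm38 (mm10) sequence from RefSeq, 5′ to 3′ in the sense of the LTR, from the LTR end to just beyond the outermost CpG that was tested, with the tested CpGs in capitals. An upstream flank ends at the LTR and a downstream flank starts at it. The first 3 were lower in sperm and the others higher. Their places are chr1:40211811-40212046 (minus strand, Il1r1), chr1:46181237-46181395 (plus strand, Dnah7b), chr1:99635455-99635736 (plus strand, Cntnap5b), chr10:11253898-11254118 (minus strand, Fbxo30) and chr1:90090365-90090571 (minus strand, Iqca).
Il1r1, upstream flank: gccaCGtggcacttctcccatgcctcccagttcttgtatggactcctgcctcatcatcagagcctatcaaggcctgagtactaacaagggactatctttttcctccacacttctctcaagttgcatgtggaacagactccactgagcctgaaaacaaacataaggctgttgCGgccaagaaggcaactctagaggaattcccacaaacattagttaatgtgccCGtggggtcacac
Dnah7b, downstream flank: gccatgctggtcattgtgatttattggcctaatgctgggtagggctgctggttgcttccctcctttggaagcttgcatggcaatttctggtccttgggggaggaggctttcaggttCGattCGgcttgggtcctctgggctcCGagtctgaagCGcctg
Cntnap5b, downstream flank: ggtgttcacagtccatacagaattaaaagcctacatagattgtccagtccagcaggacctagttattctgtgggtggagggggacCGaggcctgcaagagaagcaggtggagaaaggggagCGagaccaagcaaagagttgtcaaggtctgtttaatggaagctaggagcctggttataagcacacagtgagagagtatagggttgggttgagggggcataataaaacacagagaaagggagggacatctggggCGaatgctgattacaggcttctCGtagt
Fbxo30, downstream flank: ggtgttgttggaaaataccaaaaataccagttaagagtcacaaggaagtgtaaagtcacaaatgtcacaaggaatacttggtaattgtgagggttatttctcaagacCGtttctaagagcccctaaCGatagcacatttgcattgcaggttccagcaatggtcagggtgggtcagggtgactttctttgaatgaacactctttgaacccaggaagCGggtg
Iqca, upstream flank: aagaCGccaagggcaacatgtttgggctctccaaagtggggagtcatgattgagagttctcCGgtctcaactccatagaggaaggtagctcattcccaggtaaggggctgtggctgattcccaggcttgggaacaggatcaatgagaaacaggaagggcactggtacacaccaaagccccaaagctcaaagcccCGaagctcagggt
The 6 bases next to the LTR were repeated at its other end in the Dnah7b, Fbxo30 and Iqca loci, as gccatg in Dnah7b, ggtgtt near Fbxo30 and cagggt in Iqca. The Il1r1 locus had no such repeat. At the Cntnap5b locus a longer run, the same 19 bases, ended at 1 end of the LTR and started at the other.

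Reads reached only a short way into the flanks and only on 1 strand. The flanks received 221417 calls in sperm, of which 186605 were methylated, and 121931 in tail, of which 99885 were methylated. Of these calls, 99.8% in sperm and 97.2% in tail lay in the first 300 bp. Calls lay on the antisense strand in upstream flanks (99.8% in sperm and 99.6% in tail) and on the sense strand in downstream flanks (99.7% and 99.8%), which are the strands that the primers read. At least 1 call was found at 1104 positions in 406 sides of 287 solo LTRs.

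A level was given to a position with at least 10 calls, and to a side as the mean of such positions where they had at least 20 calls in all. By this measure 197 sides of 159 solo LTRs were measured in sperm and 197 sides of 158 solo LTRs in tail, and 166 sides were measured in both. More downstream than upstream sides were measured, with 128 against 69 in sperm and 119 against 78 in tail. Of the sides that hold a CpG on the readable strand within 300 bp, 54.7% were measured in sperm and 55.7% in tail for the targeted subfamilies, against 6.08% and 5.07% for the others. A side had a median of 2 positions in either library, and 84 sides in sperm and 89 in tail rested on 1 position. The median number of calls per side was 297 in sperm and 163 in tail.

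Most flanks were highly methylated in both libraries. The median level was 0.905 in sperm (95% order-statistic interval of the median 0.875 to 0.937, n = 197 sides) and 0.848 in tail (0.815 to 0.874, n = 197 sides). Levels above 0.8, the limit for high methylation in the study, were found in 128 of the 197 sides in sperm and 118 of the 197 in tail, and levels at or under 0.2, its limit for low methylation, in 6 and 4. The sides between these limits numbered 63 in sperm and 75 in tail. Among single positions, 304 of 432 were above 0.8 in sperm (70.4%, exact 95% binomial interval 65.8 to 74.6) and 302 of 472 in tail (64.0%, 59.5 to 68.3).

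The level of a flank was close to that of its own LTR in sperm and somewhat below it in tail. Flank sides had a median of 0.905 in sperm, against 0.918 for the LTRs they adjoin, and of 0.848 in tail, against 0.910. The median of flank minus own LTR was -0.0077 in sperm (95% interval -0.034 to 0.010) and -0.056 in tail (-0.093 to -0.032), with 195 sides in each library. Differences of at least 0.2 ran mostly in 1 direction, since 43 flanks were that much lower than their LTR in sperm and 7 that much higher, and 48 were lower and 1 higher in tail. Levels end at 1 and most of these LTRs were above 0.8, so most flanks could not be that much higher. The direction of these counts is therefore no result about flanks. Across sides the levels of flank and LTR were weakly related in sperm (Spearman's rho 0.323, n = 195) and hardly in tail (rho 0.0982, n = 195), and both values of a pair share their library and locus. Close to the border the picture was the same, with a median of -0.0047 in sperm (n = 124) and -0.055 in tail (n = 114) for the 100 bp outside minus the 50 bp inside the same end.

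**Figure D1:**
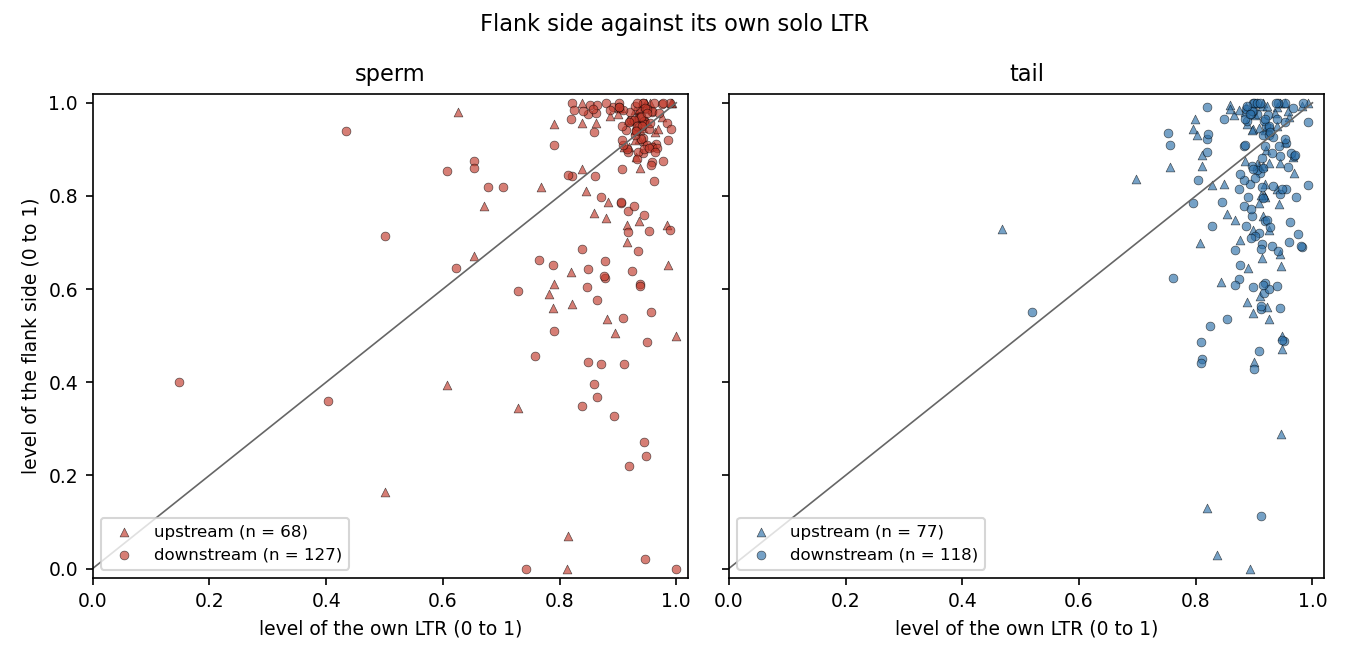
Level of each flank side (vertical axis, fraction of methylated calls averaged over positions) against the level of its own solo LTR (horizontal axis) in sperm (left) and tail (right), with triangles for upstream and circles for downstream sides and a line of equal levels. Most points lie at the upper right, and the flanks that leave the line lie mostly below it, 43 of 195 by at least 0.2 in sperm and 48 of 195 in tail.

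Mean levels were lower outside the LTR than just inside it, and medians showed no steady course with distance. In sperm, the mean position level was 0.882 in the 50 bp inside the LTR ends, 0.829 at 1 to 50 bp, 0.832 at 51 to 100 bp, 0.804 at 100 to 150 bp, 0.803 at 150 to 200 bp and 0.754 at 200 to 300 bp, where a bin that starts at 100 bp or more leaves out its lower bound. In tail, the means were 0.898 inside, 0.793 at 1 to 50 bp, 0.793 at 51 to 100 bp, 0.833 at 100 to 150 bp, 0.841 at 150 to 200 bp and 0.765 at 200 to 300 bp. The SD over positions was 0.166 inside and 0.231 to 0.316 outside in sperm, and 0.126 and 0.194 to 0.266 in tail, so the steps between neighbouring bins are small beside the scatter. In the bins up to 300 bp outside, medians lay between 0.915 and 0.969 in sperm and between 0.860 and 0.958 in tail. The lower means at 200 to 300 bp came with more positions at or under 0.2, 8 of 75 in sperm and 8 of 114 in tail, against 3 of 118 and 4 of 107 at 1 to 50 bp. Beyond 300 bp the depth allows no statement for sperm, where 2 positions at 300 to 400 bp passed, while 22 did in tail with a mean of 0.780. Upstream ends alone were an exception in tail, with a mean of 0.881 inside and 0.897 at 150 to 200 bp.

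The bin nearest to the upstream end stood lower in tail. At 1 to 50 bp upstream the mean was 0.838 ± 0.214 in sperm (SD, n = 38 positions of 32 solo LTRs) and 0.698 ± 0.279 in tail (n = 38 positions of 32 solo LTRs), and downstream it was 0.825 ± 0.240 in sperm (n = 80) and 0.845 ± 0.185 in tail (n = 69). In both libraries 34 of these upstream positions were measured, where sperm averaged 0.827 and tail 0.750. Sperm was higher at 21 of them and lower at 13, by a median of 0.0448 for sperm minus tail (95% interval -0.016 to 0.238). The interval of this difference includes 0. With summed calls over every covered position, which weight the deeply read positions, the tail level of this bin was 0.795.

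**Figure D2:**
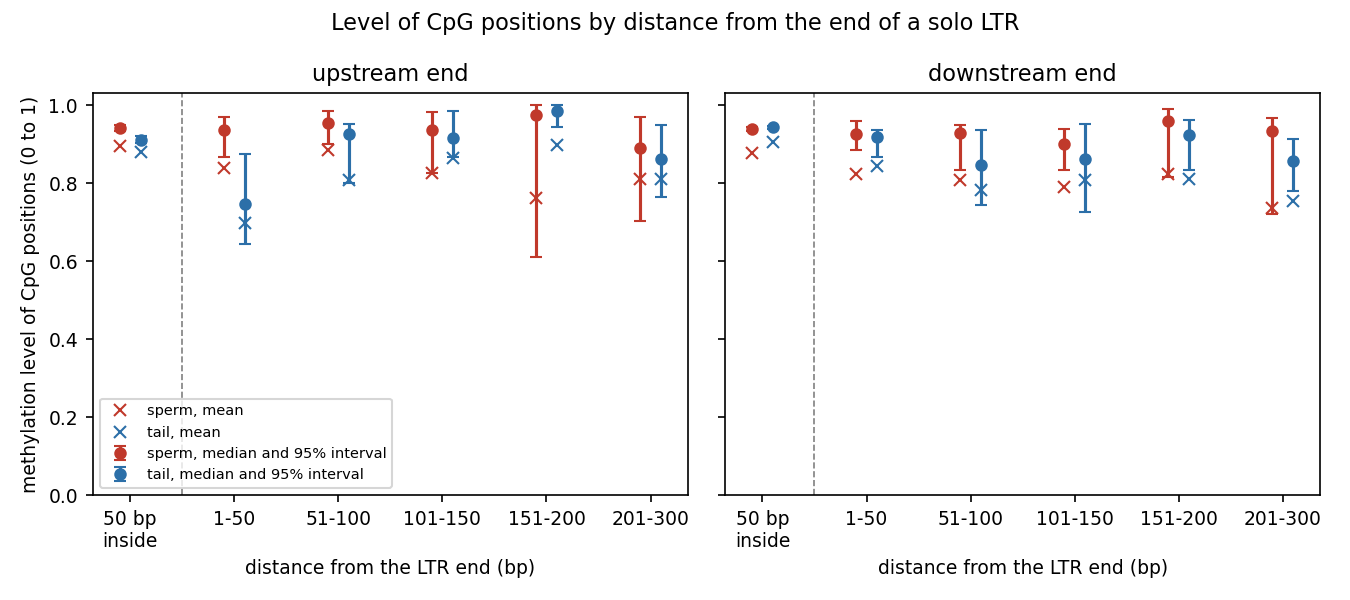
Level of CpG positions with at least 10 calls (vertical axis) by distance from the LTR end (horizontal axis, bp) for upstream ends (left) and downstream ends (right), with sperm in red and tail in blue, circles for medians with their 95% order-statistic intervals and crosses for means. A dashed line marks the LTR end, the intervals outside overlap widely between bins, and the lowest median is that of tail at 1 to 50 bp upstream (0.746, 0.645 to 0.874).

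Upstream and downstream flanks did not differ clearly. Medians were 0.921 upstream (n = 69) and 0.901 downstream (n = 128) in sperm, and 0.864 upstream (n = 78) and 0.835 downstream (n = 119) in tail. In the solo LTRs with both sides measured, upstream minus downstream had a median of -0.0082 in sperm (95% interval -0.072 to 0.045, n = 38) and of 0.065 in tail (-0.048 to 0.1203, n = 39). Both intervals include 0. The 2 flanks of an LTR were weakly related across loci in sperm (rho 0.256, n = 38) and hardly in tail (rho 0.0483, n = 39). These pairs come from different primers but the same library.

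CpGs within 20 bp of each other had closer levels than those 51 bp or more apart. Neighbouring positions within 20 bp on the same side differed by a median of 0.0453 in sperm (78 pairs) and 0.0670 in tail (104 pairs), and those 51 to 100 bp apart by 0.143 in sperm (40 pairs) and 0.167 in tail (48 pairs). Beyond 100 bp the medians were 0.0917 in sperm (42 pairs) and 0.145 in tail (45 pairs). Neighbours on a side can be read on the same fragment and are not independent. Within sides of at least 3 positions the median SD was 0.102 in sperm (46 sides) and 0.147 in tail (47 sides), while the SD of levels over all sides was 0.236 in sperm and 0.193 in tail.

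The flanks of all subfamilies with enough measured sides were mostly methylated. In sperm, the medians were 0.941 for IAPEY_LTR (9 sides), 0.781 for IAPLTR1_Mm (6), 0.883 for IAPLTR1a_Mm (13), 0.940 for IAPLTR2_Mm (44), 0.900 for IAPLTR2a (26), 0.842 for IAPLTR2a2_Mm (41) and 0.895 for IAPLTR2b (49). In tail, they were 0.930 for IAPEY_LTR (9), 0.888 for IAPLTR1_Mm (7), 0.7996 for IAPLTR1a_Mm (16), 0.876 for IAPLTR2_Mm (46), 0.836 for IAPLTR2a (25), 0.788 for IAPLTR2a2_Mm (38) and 0.826 for IAPLTR2b (50). The 95% intervals of these medians overlap. For IAPLTR2a2_Mm they ran from 0.662 to 0.953 in sperm and from 0.692 to 0.863 in tail, and for IAPLTR2_Mm from 0.892 to 0.963 in sperm and from 0.786 to 0.947 in tail. The remaining measured subfamilies, IAPEY2_LTR, IAPEY3_LTR, IAPEY3C_LTR and IAPLTR4, had at most 3 sides each. IAP1-MM_LTR (23 solo LTRs), IAPEY4_LTR (5), IAPEY5_LTR (10) and IAPLTR3 (1) had none.

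**Figure D3:**
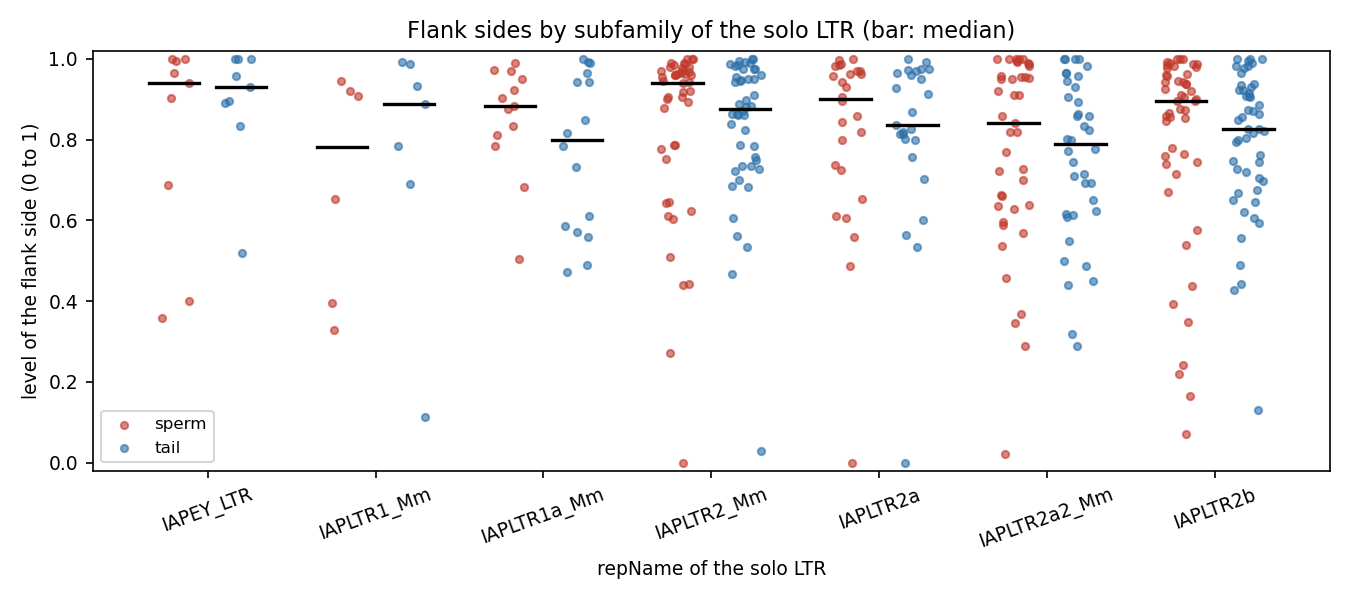
Level of each measured flank side (vertical axis) by the subfamily of its solo LTR (horizontal axis), for the subfamilies with at least 5 measured sides in both libraries, with sperm (red) left of tail (blue) and bars for medians. Most points lie in the upper part of the range, and the medians range from 0.781 to 0.941 in sperm and from 0.788 to 0.930 in tail. Levels above 0.8 were less common in some subfamilies, with 18 of 38 sides of IAPLTR2a2_Mm and 8 of 16 of IAPLTR1a_Mm in tail, and 3 of 6 of IAPLTR1_Mm in sperm.

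Position relative to genes was looked up in GENCODE M21. Of the 840 flank windows, 689 lay outside protein-coding genes, 131 in introns and 20 touched an exon. Intronic sides had a median of 0.957 in sperm (n = 37) and 0.877 in tail (n = 38), against 0.879 in sperm and 0.830 in tail (n = 148) for the sides outside genes. The intervals of these medians were 0.910 to 0.971 and 0.819 to 0.919 in sperm, and 0.727 to 0.950 and 0.802 to 0.874 in tail. Repeat-masked bases held 205 of 432 measured positions in sperm, with a median of 0.926 against 0.937 for unmasked ones, and 234 of 472 in tail, with 0.879 against 0.909. Sides of solo LTRs with the 6-base duplication had a median of 0.920 in sperm (n = 130), against 0.875 without it (n = 67), and of 0.856 in tail (n = 131), against 0.841 (n = 66), and their intervals overlap.

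The outer flanks of LTRs listed as 5′ or 3′ were read in the same way. Upstream flanks of solo LTRs reached a median of 0.921 in sperm and 0.864 in tail, against 0.783 in sperm (n = 89) and 0.898 in tail (n = 89) upstream of 5′ LTRs. Downstream of solo LTRs they were 0.901 in sperm and 0.835 in tail, against 0.849 in sperm (n = 133) and 0.811 in tail (n = 126) downstream of 3′ LTRs. These differences between kinds of LTR were not tested.

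Low flanks were few, mostly thinly covered, and none was low in both libraries. They were named after their values were seen. In sperm, they were the upstream flank near Il1r1, described below, and 5 sides with 1 position each. From summed calls the Il1r1 side had 0.237 in sperm, above the limit. The downstream flank of an IAPLTR2a2_Mm LTR 256349 bp from Crygf, a lens crystallin gene, had 2 methylated calls of 98 in sperm, a level of 0.0204 (exact 95% interval 0.0025 to 0.0718), and the same position was fully methylated in 38 tail calls. The upstream flank of an IAPLTR2b LTR 5445 bp from Heca had 9 methylated calls of 129 in sperm (0.0698, 0.0324 to 0.128), against 52 of 53 in tail (0.981). Both sides were called lower in sperm. The other 3 had no methylated call among 38 (1949045 bp from Cdh20), 57 (1279257 bp from Dsel) and 32 (in an intron of Dpp10). These counts allow levels of up to 0.0925, 0.0627 and 0.109 by the same interval, and the 3 sides were not measured in tail. In tail, 1 low side was a downstream flank 403108 bp from Adgrb3. It had 21 methylated calls of 106 (0.112 over 2 positions, against 0.396 in sperm from 44 calls). The other 3 were upstream flanks not measured in sperm. They lay 530286 bp from Pou3f3 (3 of 23 calls), 137733 bp from Cntnap5b (0 of 62) and in an Hmcn1 intron (1 of 34).

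The LTRs beside the low flanks were not low. Own LTR levels were 0.743 to 1 in sperm for the 5 single-position sides and 0.820 to 0.913 in tail for the 4 tail sides. In turn, both solo LTRs at or under 0.2 with at least 100 calls were IAPEY_LTR copies in sperm, and almost nothing was read beside them. The LTR at chr1:27942334-27942717 (0.148 in sperm and 0.728 in tail) had a downstream position with 12 methylated calls of 30 in sperm (exact 95% interval of the level 0.227 to 0.594) and 5 of 5 in tail, and no upstream calls. The LTR at chr1:145937926-145938309 (0.181 in sperm and 0.920 in tail) had no call in either flank. Whether low methylation extended from these LTRs into their flanks could not be read at this depth.

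Positions at the extremes rested on few calls. The 9 positions with no methylated call in sperm had a median of 26 calls and at most 57, and the 8 in tail a median of 37 and at most 62, against medians of 162.5 and 85.5 calls for positions between 0 and 1. Of positions at or under 0.2, 4 of 22 in sperm and 0 of 20 in tail had at least 100 calls. The number of starting molecules behind these calls is unknown.

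By medians, the flanks were slightly more methylated in the sperm library than in the tail library, while mean levels were nearly equal. Across the 166 sides with a level in both libraries, sperm had a median of 0.906 and tail one of 0.837, and the paired differences (sperm minus tail) centred on 0.0346 (95% interval 0.010 to 0.0679), with sperm higher in 104 sides and lower in 57. The levels of a side in the 2 libraries were only weakly related (rho 0.185, n = 166). Depth differed too, as given above, and its part in the difference was not tested.

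For single sides, the calls of both libraries were compared with Fisher's exact test (two-sided, over positions with at least 10 calls in both), with p-values adjusted by Benjamini-Hochberg over 398 flank sides of all listed LTRs, and a side was called where adjusted p was under 0.05 and mean position levels differed by at least 0.2. Of 161 sides of solo LTRs tested, 25 were called lower in sperm (15.5%, exact 95% interval 10.3 to 22.1) and 28 higher (17.4%, 11.9 to 24.1). Among all 398 sides, which include these 161, 18.8% were called lower and 14.6% higher. Both values lie within the intervals of the solo LTR shares, although the more common direction was the other one. The difference between solo and other LTRs was not tested. Without the minimum difference 112 sides passed, and 115 had an unadjusted p under 0.05. Calls were found in both directions upstream (10 lower and 10 higher of 61) and downstream (15 and 18 of 100).

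Single positions were also called in both directions. Of 353 flank positions, 52 were called lower in sperm (14.7%, 11.2 to 18.9) and 61 higher (17.3%, 13.5 to 21.6), against 11.8% and 7.75% of the 107519 positions of both files. Positions of 1 flank can share fragments and are not independent, and the difference of these shares from the background was not tested. By distance, 13 lower and 17 higher calls fell among 97 positions at 1 to 50 bp and 12 and 12 among 63 at 200 to 300 bp.

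**Figure D4:**
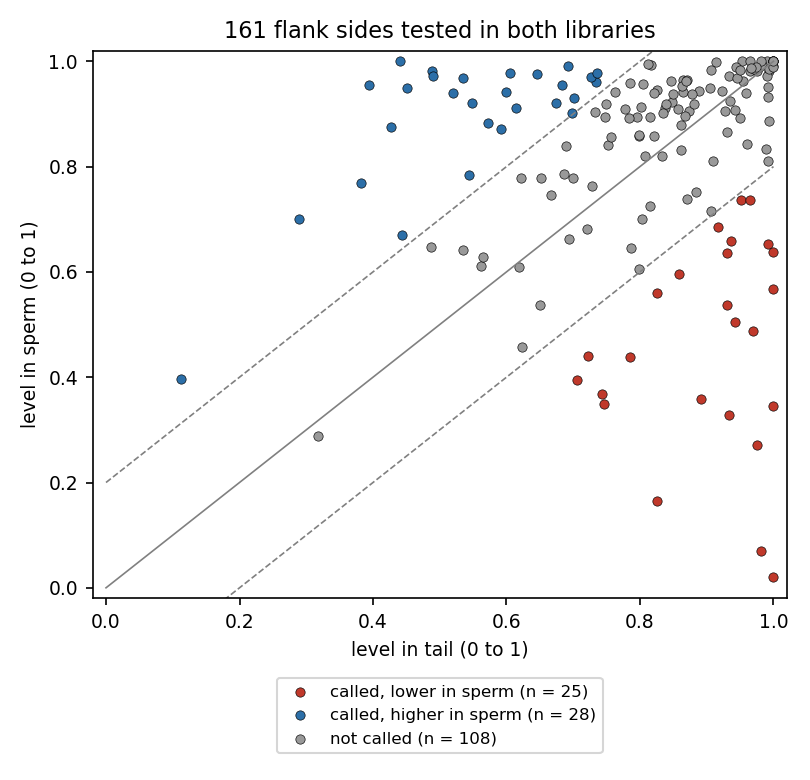
Level in sperm (vertical axis) against level in tail (horizontal axis) for the 161 flank sides tested, as means over positions with at least 10 calls in both, with the 25 sides called lower in sperm in red, the 28 called higher in sperm in blue and the 108 others in grey. Dashed lines mark a difference of 0.2, and called sides lie on both sides of the line of equal levels.

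Most LTRs beside flanks that differed between the libraries differed by less than 0.2, as did most LTRs beside the other flanks. The 25 sides called lower in sperm had a median difference of -0.376, while the LTRs beside them had a median difference of -0.0468, and 3 of the 25 LTRs were lower in sperm by at least 0.2. The 28 sides called higher had a median difference of 0.321, against 0.0032 for their LTRs, of which none was higher in sperm by at least 0.2 and 2 were lower by that much. These LTRs had a median of 0.913 in tail and levels end at 1, so most of them could not be higher by at least 0.2. Of the 106 sides not called that had an LTR level in both libraries, 5 had an LTR lower in sperm by at least 0.2. Across 159 sides the difference of the flank was weakly related to that of its LTR (rho 0.247).

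The 2 flanks of a solo LTR were both tested at 27 loci. Both were called lower in sperm at 2 of them and both higher at 3, none had calls in opposite directions, 13 had 1 called side and 9 none. Of the loci with both sides higher, 1 lay near Rp1, a photoreceptor gene, and 1 in Pth2r, which encodes a receptor of the parathyroid hormone family. The other was 687385 bp from its nearest protein-coding gene, Kcnt2, which encodes a potassium channel. Near Rp1, the upstream side had 0.671 in sperm and 0.443 in tail, the downstream side 0.875 and 0.427, and the LTR between them 0.653 and 0.900. At this locus the flanks were thus higher in sperm while their LTR was lower by 0.247. The loci with both sides lower lay 16924 bp from Cdc42bpa, which encodes a kinase, and 90849 bp from Cr2, which encodes a complement receptor.

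The deepest of these is the downstream flank of the IAPLTR1a_Mm LTR at chr1:65337280-65337637 (minus strand) in Pth2r. Its single position, 272 bp from the LTR and in coding sequence, had 1323 methylated calls of 1362 in sperm (0.971, 0.961 to 0.9796) and 1329 of 2713 in tail (0.490, 0.471 to 0.509), with an adjusted p of 4.59e-251. The upstream flank of the same LTR, in an intron, had a mean of 0.955 in sperm (88 calls) and 0.394 in tail (23 calls) at its 2 shared positions. The LTR itself had 0.940 in sperm and 0.947 in tail. A highly methylated LTR thus stood between flanks of intermediate level in tail.

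The largest called differences among sides with at least 3 positions and 100 calls in both libraries were 4 lower and 3 higher in sperm, and no more sides met these conditions. Of these, 6 are described. All adjusted p-values for them come from the Fisher's exact test over 398 sides.

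The upstream flank of the IAPLTR2b LTR at chr1:40211509-40211810 (minus strand) lies 12270 bp from Il1r1, which encodes the receptor of interleukin 1. Its 3 positions at 12, 64 and 231 bp had levels of 0.287, 0.206 and 0 in sperm (669, 855 and 26 calls), against 0.735, 0.793 and 0.950 in tail (551, 797 and 199 calls). The means were 0.164 in sperm and 0.826 in tail, a difference of -0.662 (exact test, adjusted p = 9.61e-220). All 3 positions were lower in sperm, and so was the LTR, with 0.502 against 0.919. This is the only side of the 6 whose LTR also differed by at least 0.2. The downstream flank of the same LTR had 0.715 in sperm and 0.907 in tail, which was under the minimum difference for a call.

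The downstream flank of the IAPLTR1_Mm LTR at chr1:46180882-46181236 (plus strand) lies in an intron of Dnah7b, an axonemal dynein heavy chain gene. At 117, 122, 143 and 154 bp its positions had 0.150, 0.339, 0.108 and 0.713 in sperm (251 to 613 calls), against 0.978, 0.968, 1 and 0.786 in tail (14 to 93 calls). The difference of the means, 0.327 in sperm and 0.933 in tail, was -0.605 (exact test, adjusted p = 3.66e-80). The first 3 positions carried it, while at 154 bp the difference was -0.0729. The LTR had 0.894 in sperm and 0.820 in tail.

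Near Cntnap5b (136311 bp), a gene of a neuronal cell adhesion family, the downstream flank of the IAPLTR2a LTR at chr1:99635033-99635454 (plus strand) changed along its length. At 86 and 122 bp the levels were 0.957 and 0.992 in sperm and 0.940 and 1 in tail. At 255 and 277 bp they were 0 in sperm, from 18 and 19 calls, and 1 and 0.937 in tail, from 12 and 79 calls. The call (difference -0.482, exact test, adjusted p = 4.65e-05) rests on these 2 positions. With at least 20 calls per position, or with the first 200 bp alone, the difference was 0.00503. From summed calls, which the exact test uses, it was -0.0938, under the limit for a call.

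In Hhat, which encodes the acyltransferase of Hedgehog proteins, the downstream flank of the IAPLTR2a2_Mm LTR at chr1:192629957-192630200 (plus strand) lies over intron and non-coding exon. Of its first 300 bp, 280 matched other IAP elements, so this side is largely IAP-like sequence. Over 15 positions the means were 0.659 in sperm and 0.936 in tail, a difference of -0.277 (exact test, adjusted p = 1.30e-148). The largest gaps were at 265 and 270 bp, with 1 methylated call each of 92 and 94 in sperm, while the next position at 283 bp had 93 of 93. The difference was under the limit for a call with at least 50 calls per position (-0.134) and within the first 200 bp (-0.186).

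Near Fbxo30 (27212 bp), which encodes an F-box protein, the downstream flank of the IAPLTR2a2_Mm LTR at chr10:11254119-11254650 (minus strand) was higher in sperm. At 108, 127 and 216 bp it had 0.939, 0.921 and 0.991 in sperm (179, 165 and 2292 calls), against 0.313, 0.438 and 0.602 in tail (16, 16 and 718 calls). All 3 positions differed the same way, with means of 0.950 in sperm and 0.451 in tail (exact test, adjusted p = 1.12e-170). The LTR had 0.933 in sperm and 0.811 in tail.

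The upstream flank of the IAPLTR2a2_Mm LTR at chr1:90089926-90090364 (minus strand) lies in an intron of Iqca. At 12, 145 and 202 bp it had 0.859, 0.915 and 0.989 in sperm (94 to 422 calls), against 0.724, 0.705 and 0.217 in tail (60 to 196 calls). The means were 0.921 in sperm and 0.549 in tail, a difference of 0.372 (exact test, adjusted p = 2.38e-26), which was 0.172 within the first 200 bp and then no call. The gap widened away from the LTR. The downstream flank of the same LTR did not differ in this way, with 0.993 in sperm and 0.983 in tail (exact test, adjusted p = 0.646), and neither did the LTR, with 0.929 and 0.899.

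**Figure D5:**
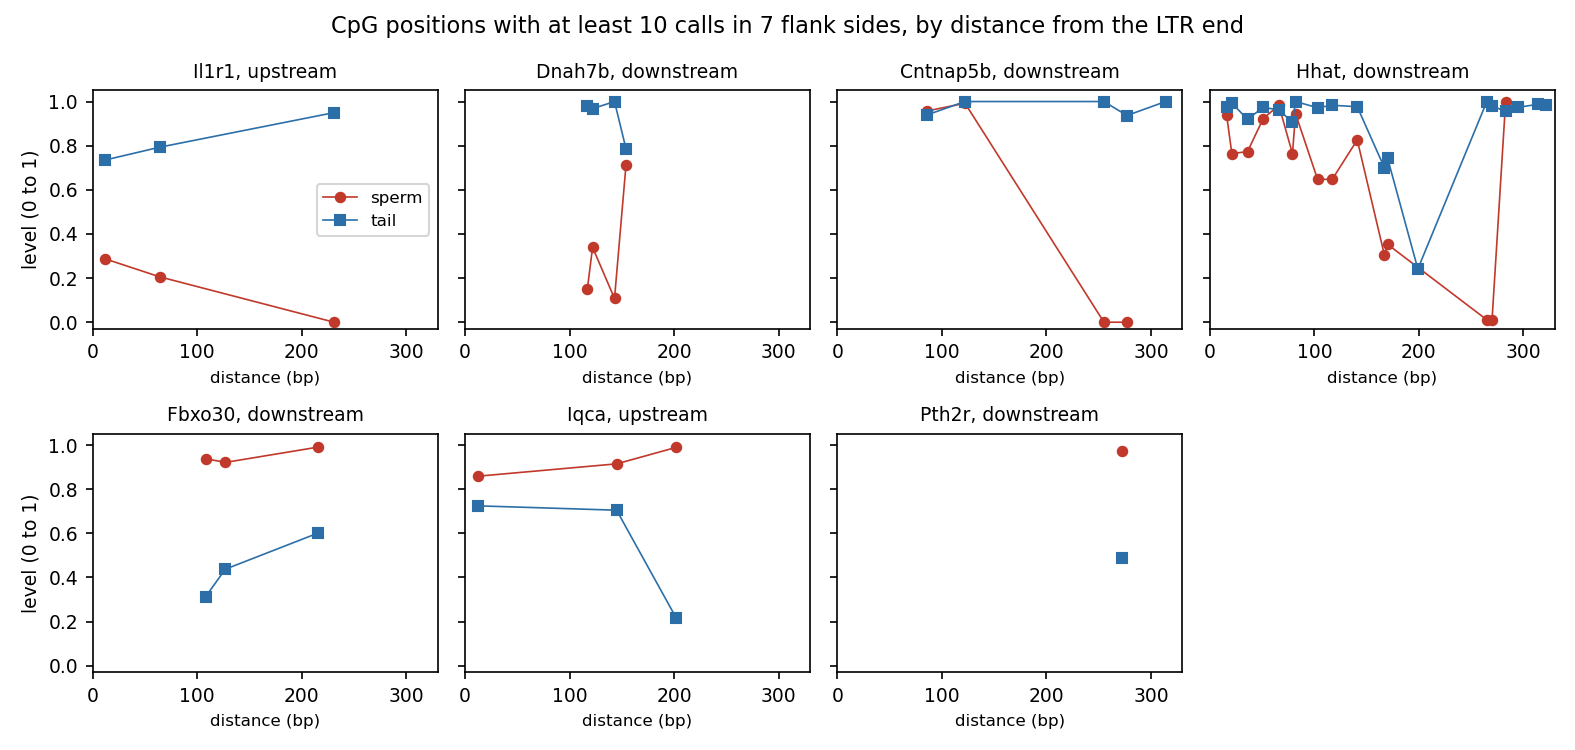
Level of CpG positions with at least 10 calls (vertical axis) by distance from the LTR end (horizontal axis, bp) in 7 flank sides, named by the nearest or host gene, with sperm as red circles and tail as blue squares. Sperm lies below tail at most positions of the upper row (called lower in sperm) and above it at most of the lower row (called higher), and the gap often rests on some of the positions, as at 255 and 277 bp near Cntnap5b.

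Further sides were among the lowest with at least 3 positions and 100 calls, and these were not called. The downstream flank near Adcy10, which encodes the soluble adenylyl cyclase needed for sperm motility, was low to intermediate in both libraries at its far end, with 0.826, 0.390 and 0.154 at 89, 248 and 281 bp in sperm and 0.952, 0.710 and 0.207 in tail (means 0.457 and 0.623). From summed calls, which the exact test uses (adjusted p = 0.329), sperm had 0.759 and tail 0.730, the other direction. The downstream flank 84333 bp from Gm29106 had means of 0.645 in sperm and 0.786 in tail (exact test, adjusted p = 1.77e-14), under the minimum difference. From summed calls it had 0.525 and 0.790, a difference of -0.264 that met the limits for a call. An upstream flank 54228 bp from the vomeronasal receptor gene Vmn1r1 had 0.988 in sperm and 0.959 in tail at 18 bp. At 172 bp it had 0.258 in sperm and 0.282 in tail, and its means were 0.745 and 0.667. Both libraries thus held a high level near the LTR and a much lower one farther out.

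Among flanks that touch an exon, levels were mostly high. Besides Hhat, Pth2r and the downstream side in Iqca, 6 such sides were measured in both libraries. The side at Sag, the arrestin gene of rod photoreceptors, had 0.964 in sperm and 0.870 in tail at a position in a non-coding exon. The sides at Ect2l, Vnn3 and Fam135a had intronic positions, with means of 0.939, 0.903 and 0.942 in sperm against 0.820, 0.732 and 0.864 in tail. Tex50, a testis-expressed gene, went the other way, with 0.738 in sperm and 0.870 in tail, also in an intron. None of these 5 met the minimum difference, although Vnn3 did with at least 20 calls per position (0.242). Upstream of the LTR in Cyp20a1, a cytochrome P450 gene, 2 of the 3 covered positions are coding, and the position at 246 bp had 22 methylated calls of 22 in sperm, against 16 of 18 in tail.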

How the data were processed

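DNA of 1 mouse was measured in 1 sperm and 1 tail library. The authors trimmed the read pairs, mapped them to mm10 with Bismark (version not given in the sources used here), discarded pairs with several matches and deposited, for each CpG position of each strand, the methylation in percent beside separate counts of calls with and without methylation. The deposited percent was left aside. All levels were derived from the deposited counts, which hold 95744413 calls at 754507 positions in sperm and 55366653 calls at 959191 positions in tail, with a median of 2 and 1 calls per position. Discarding pairs with several matches can leave out flanks that have near-identical copies.

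Solo LTRs, their subfamily (the repName of RepeatMasker) and strand came from the study's list. Interval starts were read as counted from 0, since the 6-base repeat at both ends of solo LTRs was then found at 226 loci, against 7 as printed. A position needed at least 10 calls and a side at least 20. A level is the mean over positions, intervals of medians are binomial order-statistic intervals and intervals of shares are exact (95%). Sides were compared with Fisher's exact test on summed calls, single positions likewise, with Benjamini-Hochberg adjustment over 398 sides and over 107519 positions. Correlations across loci are descriptions.

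Named were sides with at least 3 positions and 100 calls in both libraries (the 5 largest called differences in each direction and the 5 lowest levels of each library), flanks of LTRs at or under 0.2 with at least 100 calls, and at most 10 sides that touch an exon. The first part gave 4 lower and 3 higher sides, of which 1 higher side is not reported here. Other sides were named after their values were seen. The members, rules and tests were chosen with earlier results of these data known. Python 3.11.15, scipy 1.17.1, numpy 2.4.6, pandas 2.3.3, matplotlib 3.10.9 and blastn 2.17.0 were used, with GENCODE M21 for genes. The test was also run on simulated independent calls with a single level per side and library. That simulation held no PCR copies and no variation within a side, so it does not show how the test behaves on these data. Alternatives were other minimum calls, other minimum differences, summed calls, merged strands, nearer or farther positions, isolated LTRs, intervals as printed and, chosen after seeing the data, removal of IAP-like sequence.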

Additional observations from a re-analysis of the deposited data

How the results depend on the processing

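Of 171 alternative values of the main results, 156 stayed within the spread or within 1.5 times the count reported, and 15 did not. With a minimum difference of 0.1 and of 0.3, 45 and 15 sides were called higher in sperm, and with 0.3, 38 positions were called higher. With at least 50 calls per position, fewer positions and sides remained. Of 203 positions then tested, against 353 as reported, 38 were called higher in sperm and 27 lower. Low sides numbered 3 of 166 in sperm and 1 of 143 in tail, against 6 and 4 of 197 as reported. From summed calls over every covered position, sperm levels downstream were 0.906 just inside the LTR, 0.877 at 1 to 50 bp, 0.864 at 100 to 150 bp and 0.850 at 200 to 300 bp. Tail levels by the same measure were 0.926 just inside and 0.659 at 300 to 400 bp downstream, and 0.904 just inside and 0.795 at 1 to 50 bp upstream. Summed calls weight positions by their depth, and the cause of each change was not tested.

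For the 17 named sides tested, 182 alternative values kept their side of the limits for a call, 8 lost the call, 8 gained it and 3 called values turned direction. These 3 were of the downstream flank near Cntnap5b, whose difference was 0.00503 with at least 20 calls, with at least 50 calls and within the first 200 bp, since the positions at 255 and 277 bp then dropped out. The uncalled difference of the Adcy10 side, -0.166, was 0.0293 from summed calls. Without IAP-like sequence, 24 sides were called lower and 28 higher of 158, and the Hhat side dropped out. Restriction to the 409 solo LTRs with no other listed element within 1000 bp moved no main result.

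No paired analysis was possible because the sperm and tail libraries of 1 mouse form a single pair. A side rested on a median of 2 positions, a level of 0 on at most 62 calls, and little was read beyond 300 bp or beside the subfamilies without a matching primer.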

Other observations

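Sides with fewer calls were more scattered. The SD of side levels was 0.306 in sperm and 0.240 in tail for sides with 20 to 99 calls, 0.213 and 0.170 for those with 100 calls to fewer than 500, and 0.198 and 0.140 for those with at least 500. Calls between the libraries were found in each class of depth. By the library with fewer calls, 11 sides were called lower in sperm (18.6%) and 12 higher (20.3%) among 59 with 20 to 99 calls. Among 59 with 100 to fewer than 500 calls, 10 were called lower (16.9%) and 9 higher (15.3%). Among 43 with at least 500 calls, 4 were called lower (9.30%) and 7 higher (16.3%). Over all 398 sides of listed LTRs, 18.8% were called lower and 14.6% higher. The shares of these classes were not tested against each other.

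Called sides were found in each subfamily with at least 6 tested sides, beside 18.8% lower and 14.6% higher in sperm over all 398 sides. Among 34 sides of IAPLTR2a2_Mm, 8 were called lower in sperm and 7 higher, among 43 of IAPLTR2b 6 lower and 7 higher, and among 36 of IAPLTR2_Mm 2 lower and 5 higher. The counts were 4 lower and 3 higher of 22 for IAPLTR2a, 1 and 4 of 12 for IAPLTR1a_Mm, 2 and 1 of 7 for IAPEY_LTR and 2 and 1 of 6 for IAPLTR1_Mm. The shares of subfamilies were not tested against each other. Solo LTRs that were themselves lower in sperm by at least 0.2 had 10 tested sides, of which 3 were called lower, 2 higher and 5 neither, against 25 lower and 28 higher of all 161 tested sides of solo LTRs. No tested side had an LTR higher in sperm by that much.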
